A study of Mus musculus with 6 samples.

Results

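Orphan, adhesion and lipid-mediator receptors are membrane proteins that pass a signal from outside the cell to heterotrimeric G proteins within it. They were taken here as every gene in the deposited expression table whose symbol starts with Gpr and a digit, Adgr, Emr and a digit, Lphn, P2ry, S1pr, Lpar, Ptger, Adora, F2r or Fpr and a digit. This gave 84 of 13912 genes, and the rule uses names only, not values. In the mouse annotation 139 symbols follow this pattern, and the other 55 were not analysed here. The 6 libraries were made from total RNA of 4T1-Luc2-RFP cells, a mouse mammary carcinoma line of BALB/c origin with luciferase and red fluorescent protein reporters. In the first group were 3 libraries of cells recovered by FACS from MIND tumours of the mammary gland, tumours that the study's title describes as intraductal. In the other group were 3 libraries of the same line kept in culture. The titles of the tumour libraries all carry the word Right, and those of the cultured libraries the word NonInjected. All 6 carry the strain label balb/c and come from a single line, the gate of the sort is not stated, and sorting is stated for the tumour libraries only. Whether each library stands for its own animal or culture dish is not stated either, so p-values measure a spread between libraries that could be purely technical.

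Receptors of this kind differ in what they bind. Adhesion receptors carry long extracellular parts that attach to matrix or to other cells and are cut close to the membrane at an autoproteolysis site. P2Y and adenosine receptors read nucleotides and adenosine set free by stressed cells. S1P, LPA and prostaglandin receptors read lipid mediators, protease-activated receptors carry their own ligand in the extracellular tail and expose it when a protease cuts them, and formyl peptide receptors read bacterial and mitochondrial peptides. In mammary tumours such receptors are known on carcinoma cells and on leukocytes, fibroblasts and vessels. Many Gpr symbols name orphans, for which no ligand is settled.

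Receptor genes were mostly higher in the tumour libraries. With limma and Benjamini-Hochberg adjustment over all genes at 0.05, 58 of the 84 rose (69.0%) and 2 fell (2.38%), while 24 did not pass. Over all genes tested 48.2% passed, and as shares of all genes 29.5% were higher and 18.8% lower. Medians of the log2 change, tumour mean minus cultured mean, were 3.55 for the receptors and 0.08 for all genes. After quantile normalization 42 receptors were higher and 14 lower, and of all 13912 genes 2992 were higher and 5513 lower. Every tumour library was above every cultured library for 60 of the 84 receptors and below for 4. Over all genes 59.8% did not overlap, 34.6% with tumour above and 25.2% with tumour below.

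This count depends on how genes entered the table. No gene in it had under 61 reads over the 6 libraries, and 40 of the 84 receptors had under 61 reads over the 3 cultured libraries together, so they reached that minimum only with their tumour reads, which largely fixes their direction. Of those 40, 39 rose, all but the orphan Gpr62, and of all genes with so few cultured reads 85.1% rose. Among the other 44 receptors 19 rose (43.2%), 2 fell (4.55%) and 23 did not pass. Over all 11696 genes with at least 61 cultured reads, 18.9% rose and 22.3% fell. The median log2 change was 0.48 for those 44 receptors and -0.09 for those genes.

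**Figure D1:**
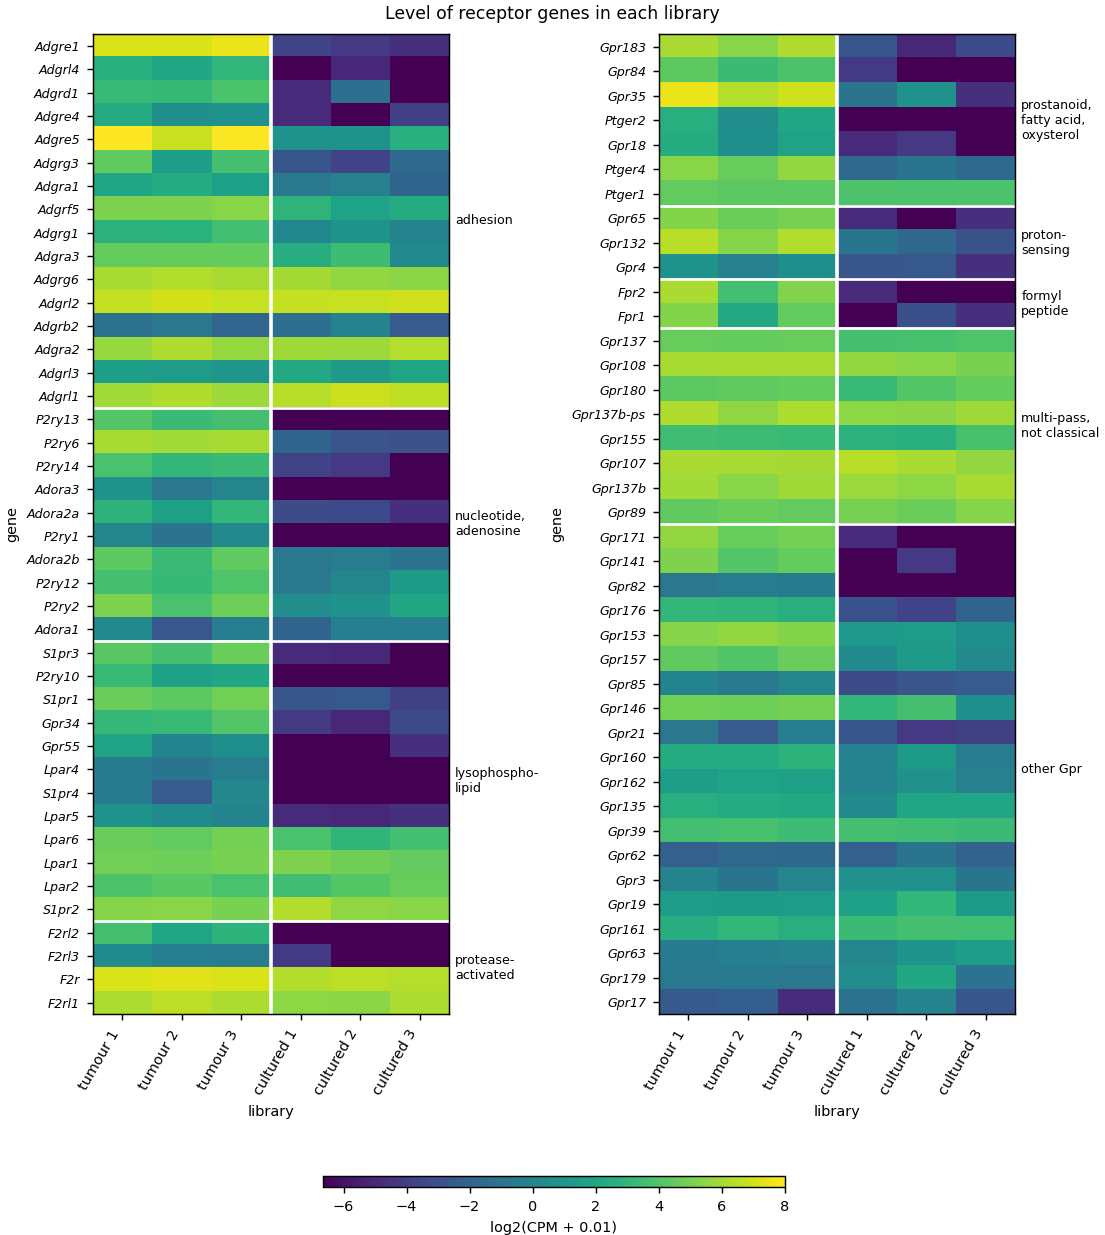
Level of the receptor genes in each library as log2(CPM + 0.01), with the 3 tumour libraries left of the 3 cultured libraries and genes grouped by role. The darkest cells are at 0 reads. Genes such as F2r, Adgrl2 and Lpar1 are bright in all 6 libraries, while P2ry13, P2ry10, Ptger2 and F2rl2 are at 0 in all 3 cultured libraries.

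Markers of other cell types stood in the same tumour libraries. Macrophage markers rose in 16 of 16 cases, with a summed level of 7967 to 11850 CPM in tumour libraries and 28.4 to 39.1 in cultured libraries. Neutrophil markers rose in 11 of 11 cases (1875 to 5174 CPM in tumour, 113 to 127 in cultured), fibroblast markers in 12 of 12 (6713 to 8614 in tumour, 23.9 to 51.7 in cultured) and dendritic cell and MHC class II markers in 9 of 10 (5561 to 7883 in tumour, 5.11 to 25.2 in cultured). Endothelial and pericyte markers rose in 11 of 12 cases (189 to 247 CPM in tumour, 34.2 to 41.9 in cultured), lymphocyte markers in 5 of 5 (6.45 to 8.97 in tumour, 0 to 0.0221 in cultured) and adipocyte markers in 3 of 3 (24.7 to 38.2 in tumour, 0.0469 to 0.398 in cultured). Among neutrophil markers the cultured sum lay mainly in Mmp9 and Slpi, at means of 91.5 and 27.9 CPM. For fibroblast markers it lay mainly in Pdgfra (31.8 CPM), and for endothelial and pericyte markers in Flt1 (23.6 CPM) and Egfl7 (10.2 CPM). Markers at 0 reads in all cultured libraries were Retnlg and Cd177 for neutrophils, Flt3 for dendritic cells, Cd4, Cd8a, Cd2 and Klrb1c for lymphocytes, Fbln1 and Dpt for fibroblasts and Emcn and Rgs5 for vessels. Epithelial markers, which define the line, were present in both groups at sums of 3182 to 3752 CPM in tumour and 3362 to 4181 CPM in cultured libraries, with 1 of 17 higher and 7 lower. Under 61 cultured reads were found for 12 macrophage, 8 neutrophil, 10 fibroblast, 8 dendritic cell and 9 endothelial and pericyte markers. The same held for all 5 lymphocyte and all 3 adipocyte markers. As for the receptors, the minimum of 61 reads largely fixes the direction of such genes. Over all genes 29.5% were higher and 18.8% lower. The part of these cell types in the receptor results was not tested. In bulk RNA more cells of a type and more RNA per cell cannot be told apart.

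CPM are reads scaled to a common library total after TMM normalization, and 1 read was worth 0.0246 to 0.0271 CPM in tumour libraries and 0.0221 to 0.0287 CPM in cultured libraries. Libraries held 35448588 to 41469090 reads. Where a gene had 0 cultured reads its fold is a lower bound against 3 reads over the group, and where it had 1 to 3 the ratio is given with its 95% exact counting interval. Both cover counting error only.

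**Figure D2:**
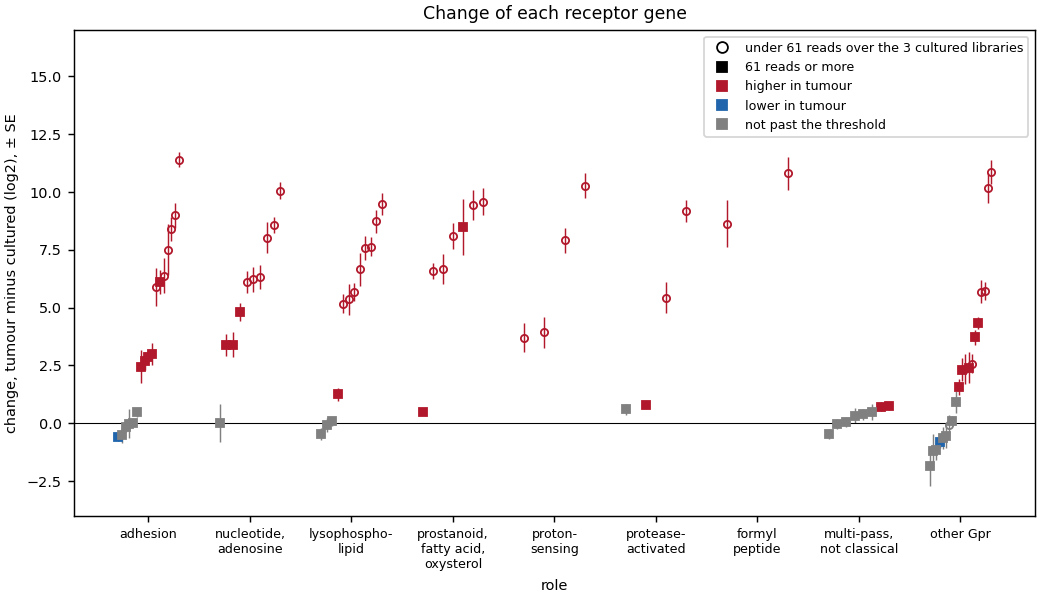
Log2 change of each receptor gene, tumour minus cultured, with limma's SE, by role. Open circles mark genes with under 61 reads over the 3 cultured libraries and filled squares the others, and colour marks the call. The 8 multi-pass proteins lie between -0.47 and 0.76, while the proton-sensing receptors lie between 3.70 and 10.28.

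Protease-activated receptors were among the receptor genes best expressed by the cultured line. F2r, which encodes the thrombin receptor PAR1, stood at 145, 165 and 142 CPM in tumour libraries 1, 2 and 3, against 80.5, 93.6 and 83.5 CPM in cultured libraries 1, 2 and 3. Every tumour library was above every cultured library, with a log2 change of 0.81 (limma SE 0.14, adjusted p = 0.00215). That change was 0.27 (adjusted p = 0.291) when libraries were scaled to the epithelial markers. F2rl1, which encodes PAR2, the receptor cut by trypsin-like proteases, had 73.9, 94.7 and 73.8 CPM in tumour libraries and 45.6, 44.1 and 74.4 CPM in cultured libraries. The groups overlapped through cultured library 3, and the log2 difference of 0.60 did not pass (SE 0.23, adjusted p = 0.0696). It passed without cultured library 3 and with library weights, which gave that library the lowest weight (0.18), so these settings are not independent.

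Beside these lie receptors nearly silent in culture. F2rl2, which encodes PAR3, a thrombin-binding cofactor receptor in mouse platelets, had 12.6, 4.04 and 7.20 CPM in tumour libraries and 0 reads in every cultured library, a difference of at least 319.7-fold (limma adjusted p = 3.74e-06). Tumour library 2 was the lowest of the tumour libraries for this gene. F2rl3, which encodes the thrombin receptor PAR4, had 1.33, 0.763 and 0.712 CPM in tumour libraries and 2, 0 and 0 reads in cultured libraries, a ratio of 56.9 (15.4 to 475.8), and its call was lost after quantile normalization (log2 change 0.85, adjusted p = 0.259). Together 3 of the 4 protease-activated receptors rose and 0 fell, and 2 of the 4 had under 61 cultured reads. Of all genes 29.5% rose and 18.8% fell.

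F2r, F2rl1 and F2rl2 lie within about the same stretch of chromosome 13 of GRCm38, at 95601803 to 95618487 on the minus strand, 95511732 to 95525227 on the minus strand and 95696853 to 95702739 on the plus strand, and all are annotated as protein-coding. Promoter sequences of F2rl2 and F2r are shown because these neighbours differ in whether culture held any reads at all. Each is 300 bases, from 250 before the start of the gene to 50 after it, from RefSeq on GRCm38.p6 and read on the strand of the gene. F2rl2 is from chr13:95696670-95696969 and F2r from chr13:95618417-95618716. Capitals mark matches, on either strand, to the GC box GGGCGG, the TATA box TATAAA, the ETS core GAGGAA and the AP-1 motif, spelled TGANTCA with N for any base. No motif overlaps another in these windows.
F2rl2: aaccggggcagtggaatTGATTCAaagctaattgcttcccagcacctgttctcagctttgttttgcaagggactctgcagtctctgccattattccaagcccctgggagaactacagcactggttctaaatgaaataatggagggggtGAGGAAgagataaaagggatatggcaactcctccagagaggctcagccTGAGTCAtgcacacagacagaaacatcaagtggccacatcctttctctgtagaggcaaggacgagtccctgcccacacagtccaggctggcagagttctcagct
F2r: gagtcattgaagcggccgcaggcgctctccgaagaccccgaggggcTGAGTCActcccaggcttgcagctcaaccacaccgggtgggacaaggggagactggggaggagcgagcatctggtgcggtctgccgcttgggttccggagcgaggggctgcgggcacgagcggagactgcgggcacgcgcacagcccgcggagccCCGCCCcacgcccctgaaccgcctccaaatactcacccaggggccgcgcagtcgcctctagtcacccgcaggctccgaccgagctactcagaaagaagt

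The F2r window had a GC content of 68.7%, with 1 GC box read on the other strand and 1 AP-1 motif. The F2rl2 window had a GC content of 50.7%, with 2 AP-1 motifs, 1 ETS core and no GC box. Over 32851 such windows of the mouse annotation 35.7% held a GC box, 13.6% a TATA box, 7.81% an AP-1 motif and 28.3% an ETS core. Windows were found for 67 of the 84 receptors. Among the 36 windows of receptors with under 61 cultured reads 27.8% held a GC box, 16.7% a TATA box, 13.9% an AP-1 motif and 18 windows an ETS core. Among the 57 windows of the other receptors 54.4% held a GC box, 5.26% a TATA box, 8 windows an AP-1 motif and 22.8% an ETS core. These shares describe letters in a fixed window, and several windows belong to the same gene.

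Both formyl peptide receptors were high in tumour libraries and close to 0 in culture. Each had under 61 cultured reads, which largely fixes its direction, and 85.1% of all such genes rose. Fpr2, a receptor for formylated peptides, serum amyloid A and annexin A1, had 71.2, 12.3 and 36.8 CPM in tumour libraries and 1, 0 and 0 reads in cultured libraries, a ratio of 4808 (862 to 189929; limma adjusted p = 1.08e-05). Fpr1, the high-affinity receptor for bacterial formyl peptides on neutrophils, had 38.3, 4.48 and 22.6 CPM in tumour libraries and 0, 5 and 1 reads in cultured libraries. Its log2 change was 8.64 (SE 1.03, adjusted p = 0.000294). For both genes tumour library 2 was far below the other tumour libraries. Without that library the log2 change was 9.54 for Fpr1 and 11.50 for Fpr2, and for Fpr1 it ran from 7.76 without cultured library 1 to 9.45 without cultured library 2, with 7.996 without tumour library 1. Neutrophil markers had the same low library, as given further on.

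Fpr1 and Fpr2 are neighbours on chromosome 17, at 17876471 to 17883940 on the minus strand and 17887824 to 17893952 on the plus strand, so the genes are transcribed away from each other. Their promoters are shown because both genes were high in tumour libraries 1 and 3 and low in tumour library 2. Fpr2 is from chr17:17887574-17887873 and Fpr1 from chr17:17883890-17884189, in the same layout and with the same capitals as above.
Fpr2: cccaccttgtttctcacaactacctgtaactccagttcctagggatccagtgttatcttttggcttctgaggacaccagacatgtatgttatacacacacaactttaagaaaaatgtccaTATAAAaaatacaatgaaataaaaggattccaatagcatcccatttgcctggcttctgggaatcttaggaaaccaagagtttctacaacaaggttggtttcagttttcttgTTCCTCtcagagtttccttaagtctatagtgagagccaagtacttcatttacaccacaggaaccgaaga
Fpr1: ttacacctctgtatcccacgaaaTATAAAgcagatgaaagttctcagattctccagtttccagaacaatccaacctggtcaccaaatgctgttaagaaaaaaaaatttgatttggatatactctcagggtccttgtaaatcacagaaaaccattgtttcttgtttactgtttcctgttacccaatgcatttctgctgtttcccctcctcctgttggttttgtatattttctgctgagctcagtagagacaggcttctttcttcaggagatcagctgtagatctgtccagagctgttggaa

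Neither window held a GC box, and each held 1 TATAAA. The Fpr2 window also held 1 ETS core on the other strand. GC content was 39.3% for Fpr2 and 40.0% for Fpr1.

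Among 17 adhesion receptors 11 rose and 1 fell, and the median log2 change was 2.87. Under 61 cultured reads were found for 6 of the 17, and over all genes 29.5% rose and 18.8% fell. Adgre1, the antigen by which mouse macrophages are stained, had 146, 142 and 188 CPM in tumour libraries and 3, 2 and 1 reads in cultured libraries. The tumour libraries were close to each other, with a log2 change of 11.40 (limma SE 0.33, adjusted p = 6.42e-07), the largest among the receptors. Adgre5, which encodes CD97, a receptor of leukocytes that binds CD55, had 250, 108 and 237 CPM in tumour libraries and 1.83, 1.79 and 5.77 CPM in cultured libraries. It rose by a log2 change of 6.11 (SE 0.52, adjusted p = 4.20e-05), less in tumour library 2 than in the others. Of its annotated exon bases 23.8% are shared with Ddx39 on the opposite strand, which had 141 ± 14.7 CPM in tumour and 300.1 ± 185 CPM in cultured libraries (SD, n = 3 each), and it is not stated whether counting used strand.

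Further adhesion receptors rose to lower tumour levels. Adgrl4, also known as ELTD1 and typical of endothelium, had 6.24, 4.31 and 8.10 CPM in tumour libraries and 0, 1 and 0 reads in cultured libraries, a ratio of 757 (135 to 29946; limma adjusted p = 6.77e-06). Adgre4, a relative of Adgre1 in myeloid cells, had 5.21, 1.65 and 1.85 CPM in tumour libraries and 1, 0 and 2 reads in cultured libraries, a ratio of 117 (39.6 to 568; adjusted p = 0.000315). All cultured libraries lay below all tumour libraries for these genes. For Adgre4 the fitted log2 change of 6.38 was 5.65 without cultured library 2 and 7.002 without cultured library 3.

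Adgrd1, which encodes GPR133, had 9.47, 8.93 and 14.4 CPM in tumour libraries and 1, 18 and 0 reads in cultured libraries. Its log2 change of 7.50 (SE 1.10, limma adjusted p = 0.000945) was 8.89 without cultured library 2 and 6.48 without cultured library 3. Adgrg3, Adgra1, Adgrf5, Adgrg1 and Adgra3 also rose, with log2 changes between 2.45 for Adgra3 and 5.90 for Adgrg3. Adgra3 had 23.1, 22.9 and 23.2 CPM in tumour libraries and 5.47, 11.1 and 1.23 CPM in cultured libraries. The spread lay in culture, and its log2 change was 1.57 without cultured library 3 and 3.14 without cultured library 2. The call for Adgra3 was lost without tumour library 1, 2 or 3 (adjusted p = 0.0594, 0.0665 and 0.0638) and when scaled to the epithelial markers (0.0711). That of Adgra1 was lost after quantile normalization (log2 change 0.74, adjusted p = 0.153). For Adgrg3, a neutrophil receptor also called GPR97, tumour library 2 stood at 2.98 CPM against 21.4 and 13.0 CPM in tumour libraries 1 and 3, and its log2 change was 6.73 without it and 5.31 without tumour library 1.

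Adgrl1 was the adhesion receptor that fell. This latrophilin, which binds teneurins and FLRT proteins, had 63.8, 75.0 and 56.9 CPM in tumour libraries and 84.7, 111 and 98.6 CPM in cultured libraries. All 3 tumour libraries were below all cultured libraries, with a log2 change of -0.59 (limma SE 0.17, adjusted p = 0.0232). It stayed below 0 under every scaling tried, and its call was lost without tumour library 1 (adjusted p = 0.0835), tumour library 3 (0.108) or cultured library 2 (0.0584). The latrophilins Adgrl2 and Adgrl3 did not pass. Adgrb2, which is not a latrophilin, overlapped between groups (adjusted p = 0.980), and after quantile normalization it was called lower, at -3.84. Adgrl2 had a mean of 115 ± 18.7 CPM in tumour and 112 ± 10.5 CPM in cultured libraries (SD, n = 3 each), and scaled to the epithelial markers it was called lower, at -0.52. Adgrl3 had 2.48 ± 0.484 CPM in tumour and 3.66 ± 1.13 CPM in cultured libraries (SD, n = 3 each), and after quantile normalization it was called lower, at -2.39. Adgra2, a coreceptor of WNT7 signalling, overlapped between groups at 60.7 ± 12.9 CPM in tumour and 67.7 ± 13.9 CPM in cultured libraries (SD, n = 3 each), and scaled to the epithelial markers it was called lower. Adgrg6, also known as GPR126, had a log2 difference of 0.48 (SE 0.19, adjusted p = 0.0734) with groups that did not overlap.

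Of the 10 nucleotide and adenosine receptors 9 rose and 0 fell, and 6 had under 61 cultured reads. The median log2 change was 6.17, or 5.33 with genes at 0 cultured reads set to their bound. The share that rose was 29.5% over all genes and 85.1% over genes with under 61 cultured reads. P2ry13, an ADP receptor, had 17.2, 10.1 and 13.1 CPM in tumour libraries and 0 reads in every cultured library, at least 546-fold higher (limma adjusted p = 1.02e-06). P2ry6, a UDP receptor of macrophages, had 66.8, 61.6 and 66.9 CPM in tumour libraries and 11, 6 and 4 reads in cultured libraries. The tumour libraries lay close together, with a log2 change of 8.57 (SE 0.34, adjusted p = 1.19e-06). P2ry14, a receptor for UDP-glucose, had 14.1, 8.17 and 10.2 CPM in tumour libraries and 3, 2 and 0 reads in cultured libraries, with a log2 change of 8.03 (SE 0.66, adjusted p = 3.38e-05) that was 7.29 without cultured library 3.

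P2ry12, the ADP receptor of platelets and microglia, had 12.6, 9.13 and 15.5 CPM in tumour libraries and 0.563, 1.04 and 2.53 CPM in cultured libraries. Unlike its neighbour P2ry13 it was present in every cultured library, and its log2 change was 3.40 (SE 0.54, limma adjusted p = 0.00135). Gpr171, P2ry14, P2ry13 and P2ry12 follow each other on the minus strand of chromosome 3 of GRCm38 between 59096448 and 59262871, and all lie within Med12l, which runs on the opposite strand. Med12l shared 9 exon bases with P2ry12 and 0 with the others, and had 3.00 ± 1.95 CPM in tumour and 0.234 ± 0.163 CPM in cultured libraries (SD, n = 3 each). P2ry2, a receptor for ATP and UTP, rose by a log2 change of 3.38 (SE 0.48, adjusted p = 0.000830), and P2ry1, an ADP receptor, was at least 36.5-fold higher from 0 cultured reads. The P2ry1 call was lost after quantile normalization (log2 change 1.26, adjusted p = 0.0693).

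The adenosine receptors divided. Adora2b, the low-affinity receptor, had 20.2, 9.99 and 21.6 CPM in tumour libraries and 0.563, 0.729 and 0.459 CPM in cultured libraries, a log2 change of 4.80 (limma SE 0.38, adjusted p = 2.88e-05). Adora2a, the receptor by which adenosine restrains leukocytes, had 7.11, 3.20 and 8.23 CPM in tumour libraries and 4, 4 and 1 reads in cultured libraries, a log2 change of 6.22 (SE 0.53, adjusted p = 4.40e-05). Adora3 was at least 44.3-fold higher from 0 cultured reads, a call lost after quantile normalization (log2 change 1.61, adjusted p = 0.0627). Adora1 had 1.30, 0.148 and 0.765 CPM in tumour libraries and 0.258, 0.751 and 0.775 CPM in cultured libraries, and these overlapped (adjusted p = 0.997), and after quantile normalization it was called lower, at -3.24. For all 4 adenosine receptors tumour library 2 was the lowest of the tumour libraries.

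Enzymes that supply and remove these ligands were mostly higher as well. In a list of extracellular nucleotide and adenosine metabolism 8 of 11 genes tested rose and 0 fell, with a median log2 change of 1.60. Of these 11, 3 had under 61 cultured reads, and over all genes 29.5% rose and 18.8% fell. Entpd1, which encodes CD39 and removes phosphates from extracellular ATP and ADP, had 146 ± 62.4 CPM in tumour libraries (SD, n = 3) and 4 reads in culture (log2 change 11.97, limma adjusted p = 4.06e-06). Nt5e, which encodes CD73 and makes adenosine, rose to 428 ± 28.8 CPM in tumour, against 100.005 ± 24.8 CPM in cultured libraries (SD, n = 3 each, log2 change 2.12, adjusted p = 6.68e-05). Entpd2 and Enpp3 also rose, at 1.37 ± 0.505 and 1.41 ± 0.550 CPM in tumour libraries (SD, n = 3) and 1 and 3 reads over the cultured libraries.

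Of the 12 receptors for lysophospholipids 9 rose and 0 fell, and 8 had under 61 cultured reads. The median log2 change was 5.52, or 4.93 with genes at 0 cultured reads set to their bound. The share that rose was 29.5% over all genes and 85.1% over genes with under 61 cultured reads. S1pr3, a sphingosine 1-phosphate receptor of stromal cells, had 19.4, 12.7 and 24.98 CPM in tumour libraries and 1, 1 and 0 reads in cultured libraries, a ratio of 1158 (320.2 to 9568; limma adjusted p = 2.99e-06). S1pr1, the receptor that guides lymphocyte exit and vessel integrity, had 25.3, 19.5 and 29.0 CPM in tumour libraries and 6, 7 and 2 reads in cultured libraries (log2 change 7.64, SE 0.41, adjusted p = 3.75e-06). S1pr2 had 40.1, 42.9 and 33.7 CPM in tumour libraries and 78.3, 47.5 and 41.9 CPM in cultured libraries. The S1P receptor with the most reads in culture was the 1 of the 4 analysed that did not rise, with a log2 difference of -0.48 (SE 0.25, adjusted p = 0.156). It was called lower with libraries centred on their median, scaled to the epithelial markers, with library weights and without cultured library 3. S1pr4, a leukocyte receptor, was at least 25.17-fold higher from 0 cultured reads, a call lost after quantile normalization (log2 change 0.45, adjusted p = 0.532).

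LPA receptors followed the same split. Lpar1 and Lpar2 stood at 30.1 ± 2.91 and 16.0 ± 2.61 CPM in tumour libraries and at 28.9 ± 6.86 and 17.7 ± 6.45 CPM in cultured libraries (SD, n = 3 each), and neither passed (limma adjusted p = 0.786 and 0.832). Lpar6 rose, with 25.5, 22.2 and 31.2 CPM in tumour libraries and 13.9, 7.53 and 12.3 CPM in cultured libraries (log2 change 1.26, SE 0.28, adjusted p = 0.00713), and its change was 0.72 (adjusted p = 0.105) when scaled to the epithelial markers. Lpar5 had 1.87, 1.30 and 0.9496 CPM in tumour libraries and 1 read in each cultured library, a ratio of 56.0 (18.8 to 274.5), and Lpar4 was at least 25.5-fold higher from 0 cultured reads. After quantile normalization the calls of Lpar5 and Lpar4 were lost (log2 change 1.29 and 0.34, adjusted p = 0.0589 and 0.462).

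Receptors for lysophosphatidylserine and lysophosphatidylinositol were nearly absent from culture. Gpr34, a lysophosphatidylserine receptor of macrophages and microglia, had 8.54, 9.38 and 17.2 CPM in tumour libraries and 2, 1 and 3 reads in cultured libraries, a log2 change of 7.59 (limma SE 0.51, adjusted p = 1.11e-05). P2ry10, a lysophosphatidylserine receptor despite its symbol, had 9.55, 3.35 and 4.43 CPM in tumour libraries and 0 reads in every cultured library, at least 232.5-fold higher (adjusted p = 4.39e-06). Gpr55, which responds to lysophosphatidylinositol, had 3.69, 0.960 and 1.58 CPM in tumour libraries and 1 read in culture, a ratio of 249.9 (44.4 to 9912), and its fitted log2 change of 6.66 was 7.30 without cultured library 3. In the list of lysophospholipid ligand metabolism 8 of 15 genes tested rose and 1 fell, with a median of 0.67. Of these 15, 2 had under 61 cultured reads, and over all genes 29.5% rose and 18.8% fell. Ppap2b, a lipid phosphatase that removes LPA and S1P, was at least 615.7-fold higher from 0 cultured reads. Pla1a, which makes lysophosphatidylserine, had a log2 change of 3.61 (adjusted p = 0.000513) and Enpp2, the LPA-making autotaxin, one of 1.66 (adjusted p = 0.0243). Sgpp1, an S1P phosphatase, fell by 1.01 on the log2 scale (adjusted p = 0.00317).

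All 7 receptors for prostaglandins, fatty acids and oxysterols rose, 5 of them from under 61 cultured reads. The median log2 change was 8.10, or 7.29 with the gene at 0 cultured reads set to its bound. The share that rose was 29.5% over all genes and 85.1% over genes with under 61 cultured reads. Ptger4, a cAMP-raising receptor for prostaglandin E2, had 41.6, 24.0 and 49.8 CPM in tumour libraries and 0.328, 0.486 and 0.316 CPM in cultured libraries, a log2 change of 6.59 (limma SE 0.36, adjusted p = 4.00e-06). Ptger2, which also raises cAMP, had 5.99, 1.501 and 4.19 CPM in tumour libraries and 0 reads in every cultured library, at least 156-fold higher (adjusted p = 1.38e-05). Ptger1 had 22.2, 19.8 and 19.97 CPM in tumour libraries and 15.2, 14.1 and 14.4 CPM in cultured libraries, a log2 change of 0.50 (SE 0.17, adjusted p = 0.0407). That call was lost in 5 of the 6 fits that left out a library (adjusted p = 0.0518 to 0.186), with libraries centred on their median (0.201) and after quantile normalization (0.562), and its sign turned, to -0.04, when libraries were scaled to the epithelial markers. Exons of Ptger1 overlap those of a gene on the opposite strand, so its reads are uncertain without strand.

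Gpr183, which guides leukocytes along oxysterol gradients, had 71.2, 42.4 and 76.8 CPM in tumour libraries and 6, 1 and 3 reads in cultured libraries. Its log2 change was 9.59 (SE 0.58, limma adjusted p = 6.63e-06), or 8.96 without cultured library 2. The enzymes that make and remove its ligand rose in 3 of 3 cases, 2 of them from under 61 cultured reads, and over all genes 29.5% rose. Ch25h, the cholesterol hydroxylase that starts its ligand's synthesis, had 17.2 ± 1.68 CPM in tumour libraries (SD, n = 3) and 1 read in culture, Cyp7b1 was at least 70.5-fold higher from 0 cultured reads, and Hsd3b7, which removes the ligand, had a log2 change of 1.14 (adjusted p = 0.00118). Gpr84, a receptor for medium-chain fatty acids on activated myeloid cells, had 20.8, 10.1 and 14.96 CPM in tumour libraries and 2, 0 and 0 reads in cultured libraries, a ratio of 927 (256 to 7658). Its fitted log2 change of 9.44 was 10.18 without cultured library 1.

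Gpr35, a receptor of myeloid and intestinal cells, was the member of this role with the most uneven culture. It had 189, 82.3 and 121 CPM in tumour libraries and 0.493, 1.86 and 0.0287 CPM in cultured libraries. The groups did not overlap, and the log2 change of 8.49 (SE 1.20, limma adjusted p = 0.000777) was 9.71 without cultured library 2 and 6.99 without cultured library 3. Gpr18, a lipid receptor of leukocytes, had 5.37, 1.60 and 3.43 CPM in tumour libraries and 1, 2 and 0 reads in cultured libraries, a ratio of 139 (47.3 to 678). Of the 9 genes for prostaglandin E2 synthesis and removal 3 rose and 4 fell, with a median of 0.08. Under 61 cultured reads were found for 1 of the 9, and over all genes 29.5% rose and 18.8% fell. Ptges, the inducible prostaglandin E synthase, rose to 64.0 ± 2.48 CPM in tumour, against 17.6 ± 5.95 CPM in cultured libraries (SD, n = 3 each). Hpgd, which breaks prostaglandin E2 down, was at least 24.8-fold higher from 0 cultured reads, and Abcc4, a transporter that exports it, fell by 1.53 on the log2 scale (adjusted p = 0.00199). Without tumour library 1 or 3 the count of lower genes there was 2.

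Proton-sensing receptors rose as well, those described here each from under 61 cultured reads, which largely fixes their direction. Of all genes with so few cultured reads 85.1% rose. Gpr65, a receptor of lymphocytes and macrophages that answers acid with cAMP, had 39.0, 26.0 and 31.8 CPM in tumour libraries and 1, 0 and 1 reads in cultured libraries, a ratio of 1969 (545 to 16264; limma adjusted p = 3.74e-06). Gpr132, a receptor of lymphoid and myeloid cells, had 89.8, 40.9 and 78.1 CPM in tumour libraries and 22, 13 and 4 reads in cultured libraries, a log2 change of 7.92 (SE 0.55, adjusted p = 1.35e-05). Gpr4, known from endothelium, had 1.82, 0.812 and 1.58 CPM in tumour libraries and 6, 7 and 1 reads in cultured libraries, a log2 change of 3.70 (SE 0.62, adjusted p = 0.00187). In Gpr65, Gpr132 and Gpr4 the lowest tumour library was library 2, and in Gpr132 and Gpr4 the lowest cultured library was library 3. The Gpr4 call was lost after quantile normalization (log2 change 0.19, adjusted p = 0.766). Without cultured library 3 the change was 3.08 for Gpr4, and that of Gpr65, 10.28, was 9.68 without cultured library 2.

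The 8 multi-pass proteins that carry a Gpr symbol but lie outside the classical receptor classes moved little. All 8 had at least 61 cultured reads, 2 rose and 0 fell, and the median log2 change was 0.36. Over all genes with at least 61 cultured reads 18.9% rose and 22.3% fell. Gpr108, a Golgi protein, had 67.3, 66.6 and 68.8 CPM in tumour libraries and 49.6, 41.6 and 33.2 CPM in cultured libraries (log2 change 0.72, SE 0.18, limma adjusted p = 0.0116). Gpr137, a lysosomal protein, had 24.1, 23.0 and 23.8 CPM in tumour libraries and 12.9, 13.5 and 15.6 CPM in cultured libraries (log2 change 0.76, SE 0.17, adjusted p = 0.00828). Both calls were lost when libraries were scaled to the epithelial markers (log2 change 0.18 and 0.22), that of Gpr108 also without tumour library 3 (adjusted p = 0.0530), and that of Gpr137 also without tumour library 1 (0.0518) or 3 (0.0503) and after quantile normalization. Gpr89, the Golgi pH regulator, was lower in every tumour library than in every cultured library but did not pass (log2 difference -0.47, adjusted p = 0.0929). It was called lower with libraries centred on their median, after quantile normalization and scaled to the epithelial markers. The same held with library weights and without cultured library 2. Gpr107, Gpr155 and Gpr180 overlapped between groups. Gpr137b and Gpr137b-ps, a gene and its annotated transcribed pseudogene, did not pass, and reads of such close copies are uncertain.

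The remaining 20 receptors with a Gpr symbol showed both directions, with 11 higher and 1 lower and a median log2 change of 1.94. Under 61 cultured reads were found for 7 of the 20, and over all genes 29.5% rose and 18.8% fell. Gpr171, a receptor for the neuropeptide BigLEN, had 48.6, 24.1 and 30.9 CPM in tumour libraries and 1, 0 and 0 reads in cultured libraries, a ratio of 4194 (752 to 165694; limma adjusted p = 2.48e-06). Gpr141, an orphan of myeloid cells, had 35.4, 17.2 and 23.5 CPM in tumour libraries and 0, 2 and 0 reads in cultured libraries, a ratio of 1538 (425 to 12707; adjusted p = 7.70e-06), and its fitted log2 change of 10.17 was 10.87 without cultured library 2. Gpr176, an orphan known from the circadian clock, had 8.19, 7.63 and 6.04 CPM in tumour libraries and 5, 3 and 9 reads in cultured libraries (log2 change 5.70, SE 0.49, adjusted p = 4.72e-05). Tumour library 2 was not the lowest for Gpr176, unlike for Gpr171 and Gpr141.

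Orphans that the cultured line expressed also changed. Gpr153 had 40.7, 49.3 and 38.7 CPM in tumour libraries and 2.21, 2.61 and 1.58 CPM in cultured libraries, a log2 change of 4.35 (limma SE 0.26, adjusted p = 6.08e-06). Gpr157 had 21.5, 16.4 and 24.8 CPM in tumour libraries and 1.27, 2.41 and 1.23 CPM in cultured libraries, a log2 change of 3.72 (SE 0.34, adjusted p = 6.39e-05). Each group was narrow beside the gap between the groups for these orphans. Gpr146, a receptor of liver and adipose tissue, had 29.8, 27.4 and 30.9 CPM in tumour libraries and 7.95, 12.9 and 1.64 CPM in cultured libraries, with a log2 change of 2.41 (SE 0.68, adjusted p = 0.0205). That call was lost without tumour library 1, 2 or 3 (adjusted p = 0.0563, 0.0590 and 0.0622) and when scaled to the epithelial markers (0.0709), and the change was 1.53 without cultured library 3 and 3.02 without cultured library 2. Gpr82 was at least 25.88-fold higher from 0 cultured reads and Gpr160 rose by a log2 change of 2.32, and both calls were lost after quantile normalization (log2 change 0.43 and 0.50, adjusted p = 0.387 and 0.237). In addition, Gpr162, Gpr21 and Gpr85 rose by 1.57, 2.35 and 2.57 but turned to -0.62, -1.94 and -1.40 after quantile normalization. Scaled to the epithelial markers the calls of Gpr162 and Gpr21 were lost (adjusted p = 0.0644 and 0.0616), and that of Gpr21 also without tumour library 1 (0.0700), tumour library 3 (0.0751) or cultured library 2 (0.0616). Gpr21 shares 74 exon bases with Rabgap1, which runs on the same strand. Gpr135 and Gpr62 did not pass (adjusted p = 0.137 and 0.906), but Gpr135 was called higher with library weights and Gpr62 lower after quantile normalization.

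Gpr161, a receptor of primary cilia that holds back Hedgehog signalling, was the other receptor that fell. It had 5.61, 8.37 and 5.96 CPM in tumour libraries and 10.3, 12.9 and 11.7 CPM in cultured libraries. The groups did not overlap, with a log2 change of -0.82 (limma SE 0.24, adjusted p = 0.0261), and the call was lost without tumour library 1 (adjusted p = 0.120), tumour library 3 (0.111) or cultured library 2 (0.0563). Gpr63 was below culture in every tumour library without passing (log2 difference -1.15, adjusted p = 0.0607). It was called lower with libraries centred on their median, after quantile normalization and scaled to the epithelial markers. The same held without a variance trend and without cultured library 1. Gpr17, Gpr179, Gpr19 and Gpr3 were lower in the mean but overlapped. All were called lower after quantile normalization, and Gpr17, Gpr179 and Gpr3 also without cultured library 3. Gpr17 and Gpr179 were called lower with library weights as well. Gpr39, a zinc receptor of epithelia, was at 12.2 ± 1.38 CPM in tumour and 11.4 ± 1.41 CPM in cultured libraries (SD, n = 3 each) and did not pass (adjusted p = 0.710).

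Levels of different receptors were compared per length of annotated exon. In tumour libraries the highest were Adgre5 at 52.7 ± 20.9, Adgre1 at 49.0 ± 7.83 and F2r at 45.1 ± 3.66 CPM per kb (SD, n = 3), which differed by less than the spread of Adgre5. They were followed by Fpr2 at 31.0 ± 22.9 and F2rl1 at 29.5 ± 4.40, whose order is within the spread of Fpr2. In cultured libraries the order was F2r at 25.7 ± 2.05, F2rl1 at 19.97 ± 6.24, Gpr108 at 14.5 ± 2.85, Adgra2 at 11.7 ± 2.40 and Adgrl1 at 11.4 ± 1.56 CPM per kb (SD, n = 3). F2r was above Gpr108 by more than either spread, while F2r and F2rl1 differed by less than the spread of F2rl1, and Adgra2 and Adgrl1 by less than theirs.

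**Figure D3:**
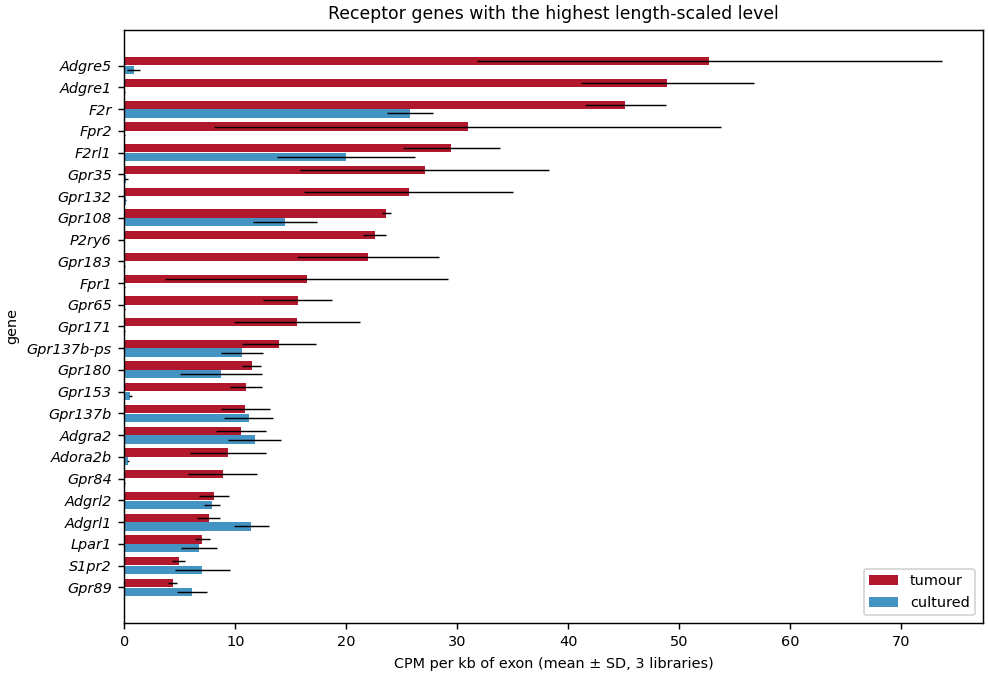
Receptor genes with the highest level per kb of exon, as mean and SD of 3 libraries in CPM per kb, with the tumour bar above the cultured bar. F2r and F2rl1 lead in culture at 25.7 and 19.97 CPM per kb, and Adgre5 and Adgre1 lead in tumour libraries at 52.7 and 49.0.

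Tumour library 2 stood apart from tumour libraries 1 and 3 for part of the receptors. This was summarised, after the data were seen, as its log2 level minus the mean of the other tumour libraries, for genes whose tumour mean reached 0 log2 CPM. The median was -0.39 over 69 receptors and 0.02 over 12703 genes. It was -2.39 for the formyl peptide receptors, -1.04 for proton-sensing, -0.88 for prostanoid, fatty acid and oxysterol, -0.61 for nucleotide and adenosine, -0.36 for lysophospholipid and -0.15 for adhesion receptors, and -0.01 for the multi-pass proteins. Tumour library 2 was the lowest of the 3 in 46 of the 69 receptors and in 4854 of the 12703 genes. Among marker lists the median was -2.43 for neutrophils, -0.51 for macrophages, -0.36 for fibroblasts, -0.44 for endothelium and pericytes and 0.19 for epithelial markers. The value was -2.71 for Fpr1, -2.48 for Adgrg3, -2.06 for Fpr2, 0.20 for F2r and 0.36 for F2rl1. It was -0.22 for Adgre1 and -0.12 for P2ry6. Neutrophil markers ran from -3.47 to 0.07 and epithelial markers from -0.28 to 0.61. These ranges overlap only through Mmp9 (0.07) and Slpi (-0.07), which had means of 91.5 and 27.9 CPM in cultured libraries. The next neutrophil marker was Trem1 at -1.43. Fibroblast markers ran from -0.69 to 0.34. Adgre1 and P2ry6 lay in both the epithelial and the fibroblast range, so the value does not assign a receptor to a cell type. It is the difference of a single library and has no test. Without tumour library 2, 55 receptors were higher and 2 lower, and of all genes 3612 were higher and 1953 lower.

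**Figure D4:**
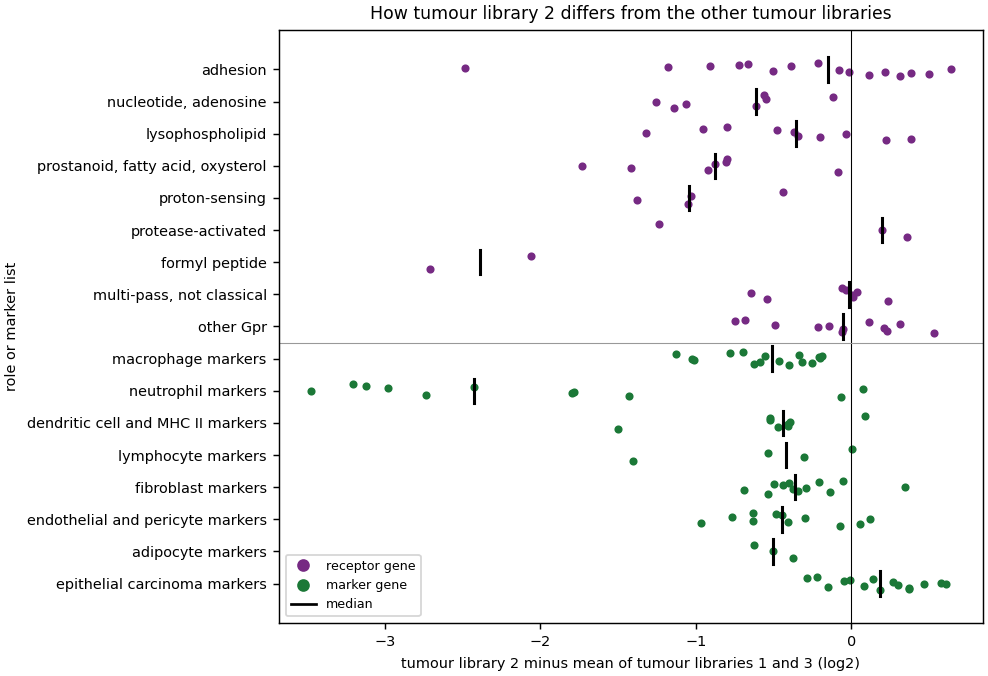
Log2 level in tumour library 2 minus the mean of tumour libraries 1 and 3, a point per gene, for receptor roles above the line and marker lists below it, with medians as black bars. The formyl peptide receptors (median -2.39) and the neutrophil markers (median -2.43) lie far to the left, and epithelial markers (median 0.19) lie around 0.

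Downstream of the receptors, some G protein subunit genes rose and 0 fell. Of 12 G alpha genes tested 7 rose and 0 fell, with a median log2 change of 0.96. Of these 12, 3 had under 61 cultured reads, and over all genes 29.5% rose and 18.8% fell. Gnai2, the Gi subunit of leukocytes and many other cells, rose to 720 ± 11.9 CPM in tumour, against 316 ± 92.3 CPM in cultured libraries (SD, n = 3 each, log2 change 1.23, limma adjusted p = 0.00329). Gna15, a Gq-family subunit of blood cells, had a log2 change of 7.58 (adjusted p = 4.20e-05), and Gnai1 was at least 30.8-fold higher from 0 cultured reads. Of 12 G beta and gamma genes 4 rose, a share near that over all genes, and 0 fell, with a median of 0.33. Among those that rose, Gngt2, Gng2 and Gng11 had 18.5 ± 3.92, 61.8 ± 6.62 and 53.3 ± 10.9 CPM in tumour libraries. In cultured libraries these genes had 0.0152 ± 0.0132, 18.1 ± 5.21 and 20.3 ± 7.53 CPM (SD, n = 3 each). Scaled to the epithelial markers, 3 G alpha genes were higher and 3 lower, and without tumour library 1 or 3 the count of higher G alpha genes was 4.

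Genes that end receptor signals and those that make or break cAMP were called higher or did not pass, apart from Rgs20. Of 15 RGS genes, which speed the shut-off of G alpha subunits, 8 rose and 1 fell, with a median of 1.05. Under 61 cultured reads were found for 4 of the 15, and over all genes 29.5% rose and 18.8% fell. Rgs1, a regulator in leukocytes, had 392 ± 110 CPM in tumour libraries (SD, n = 3) and 5 reads in culture (log2 change 12.84, limma adjusted p = 6.42e-07), Rgs18 was at least 88.26-fold higher from 0 cultured reads and Rgs2 had a log2 change of 6.48 (adjusted p = 5.82e-06). Rgs20 fell by 1.22 on the log2 scale (adjusted p = 0.0162), and 0 RGS genes were lower without tumour library 1, tumour library 2 or cultured library 1. Of 7 receptor kinase and arrestin genes 4 rose and 0 fell, with a median of 0.82, and 1 of the 7 had under 61 cultured reads. Adrbk2, a receptor kinase, was at least 2032-fold higher from 0 cultured reads, and Arrb2, an arrestin, had a log2 change of 1.85 (adjusted p = 0.000118). Arrb1, another arrestin, had a log2 change of 1.68 (adjusted p = 0.0352). The count of higher genes in that list was 2 without any 1 tumour library or without cultured library 1.

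Of 17 genes for adenylyl cyclases, cAMP phosphodiesterases and Epac 12 rose and 0 fell, with a median of 2.56. Of these 17, 8 had under 61 cultured reads, which largely fixes their direction. Over all genes 29.5% rose and 18.8% fell. Pde7b was at least 573.9-fold higher from 0 cultured reads, and Pde3b, with 37.7 ± 6.59 CPM in tumour libraries (SD, n = 3), had 4 reads in culture. Adcy4, an adenylyl cyclase of endothelium, had 3.88 ± 0.787 CPM in tumour libraries (SD, n = 3) and 2 reads in culture. Of the 4 genes for PLC-beta, a phospholipase downstream of Gq, 2 rose and 2 did not pass. Plcb2, the form of blood cells, was at least 1549-fold higher from 0 cultured reads, and Plcb1 had 3.52 ± 1.61 CPM in tumour libraries (SD, n = 3) and 2 reads in culture. Plcb3 had 203 ± 18.4 CPM in tumour and 168 ± 47.9 CPM in cultured libraries, and Plcb4 had 15.5 ± 0.149 CPM in tumour and 16.8 ± 6.79 CPM in cultured libraries (SD, n = 3 each; limma adjusted p = 0.277 and 0.985).

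Genes for proteases, for proteins that bind them and for peptide and protein ligands showed both directions. In a list of 11 genes for proteases, proteins that bind them and peptide ligands 6 rose and 2 fell, with a median of 2.98. Under 61 cultured reads were found for 4 of the 11, and over all genes 29.5% rose and 18.8% fell. F10, the coagulation factor that can cut PAR1 and PAR2, had 124 ± 66.8 CPM in tumour libraries (SD, n = 3) and 1 read in culture, a ratio of 14989 (2690 to 592091; limma adjusted p = 2.94e-06). Rarres2, which encodes chemerin, was at least 1256-fold higher from 0 cultured reads, and Thbd, the thrombin receptor thrombomodulin, had 30.1 ± 12.9 CPM in tumour libraries (SD, n = 3) and 1 read in culture. Of 10 ligand genes of adhesion receptors 9 rose and 1 fell, with a median of 4.93. Of these 10, 5 had under 61 cultured reads, which largely fixes their direction. Col3a1, a ligand of Adgrg1, had a log2 change of 12.91 (adjusted p = 1.72e-07), Plxdc2 one of 8.81 (adjusted p = 6.28e-06), and Cd55, the ligand of Adgre5, was at least 108-fold higher from 0 cultured reads. Flrt1, a ligand of latrophilins, had 1, 1 and 2 reads in tumour libraries and 20, 119 and 2 reads in cultured libraries, a log2 change of -3.28 (SE 1.16, adjusted p = 0.0495), and the call was lost without any 1 library other than cultured library 3. In the list with proteases, Procr and St14 were the 2 genes that fell, by 0.89 and 0.47 on the log2 scale. In that list 0 fell without tumour library 1 or 3, and 1 without tumour library 2 or cultured library 2.

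**Figure D5:**
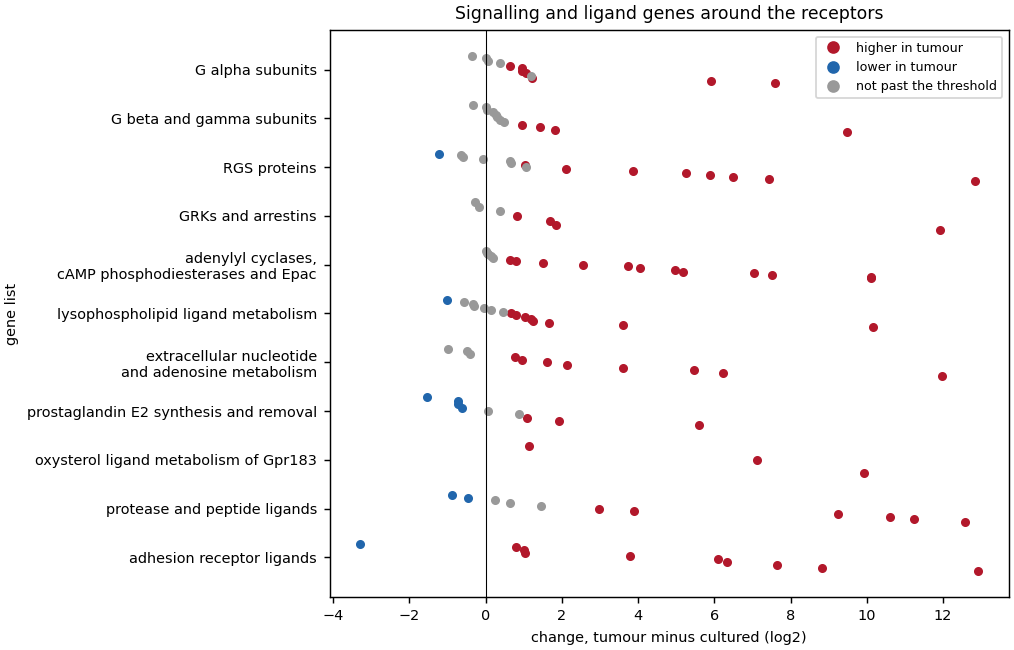
Log2 change, tumour minus cultured, of each gene in lists of signalling and ligand genes around the receptors, a point per gene, coloured by call. Lists of cAMP enzymes (median 2.56) and adhesion ligands (median 4.93) reach far to the right, and prostaglandin E2 genes (median 0.08) have calls on both sides. Under 61 cultured reads were found for 8 of the 17 cAMP genes and 5 of the 10 adhesion ligand genes.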

How the data were processed

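RNA was sequenced from 3 libraries of sorted tumour cells and 3 of cultured cells. Library numbers are names only and pair nothing. The authors deposited log2 values for 13912 genes. Per the submitters' processing notes, reads were aligned with HISAT to mm10, counted with HTSeq and processed with limma, with no versions given. The values have the form of limma's voom, log2 CPM with 0.5 reads added and a TMM-scaled total. Solving that form for reads gave whole numbers, within 0.01, in 100% of values. Libraries held 35448588 to 41469090 reads, so counting error matters only near 0 reads. Genes with under 61 reads in all were not in the table.

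The deposited values went into a two-sided limma test (version 3.58.1, R 4.3.3) of tumour minus cultured with the prior variance following the mean level, and p-values were adjusted by Benjamini-Hochberg over all genes. Count models were not run, since the deposited unit is log2. The members follow a rule on symbols alone, but that rule and the lists were proposed with earlier results of these data known. Named receptors were, within each role, up to 6 called with the largest change, without overlap and with a higher mean of at least 0 log2 CPM, and all that fell. Other receptors are named as further members of their role. Up to 3 called genes were named per signalling list by the largest change, with others named after their values were seen. Coordinates and exon lengths are from GENCODE M21 on GRCm38, the assembly of mm10, where all 84 symbols matched. Alternatives covered scaling, a filter on low values, the variance prior, weights, the added reads and leaving out each library. A few genes and their values are not reported here.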

Additional observations from a re-analysis of the deposited data

How the results depend on the processing

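No paired analysis was possible because the numbers in the labels are not shared between the groups. The count of higher receptors was 58, and among genes with a mean of at least 0 log2 CPM, which leaves 49 receptors, it was 29. The count of lower receptors was 2, and it was 5 with libraries centred on their median, 14 after quantile normalization, 7 when scaled to the epithelial markers and 6 with library weights. Leaving out a library gave 52 to 61 higher and 0 to 6 lower receptors, and 3301 to 4625 higher and 1520 to 3301 lower genes. Relative to the deposited scaling, the median change of all genes shifted by -0.22 with centring on the median, -0.40 with quantile normalization and -0.54 with scaling to the epithelial markers. Sign changes were listed only for receptors called in the main fit or in the alternative. After quantile normalization these were Gpr162 (-0.62), Gpr21 (-1.94), Gpr85 (-1.40) and Adora1 (-3.24), and scaled to the epithelial markers Ptger1 (-0.037) and Adgrl2 (-0.52). Receptors called in neither fit also changed sign. Gpr135, Gpr155 and Gpr39, for example, had changes of 0.93, 0.33 and 0.10, and lowest values over the alternatives of -0.67, -0.43 and -0.53. The cause was not tested. Of the 60 called receptors 37 kept their call and direction in every alternative that tested them. Library weights ran from 0.18 for cultured library 3 to 5.14 for tumour library 3. That setting is therefore not independent of leaving out cultured library 3. Cultured library 3 also had the fewest reads (35448588) and the most genes at 0 reads (1002). The fold of genes near 0 cultured reads is limited by depth.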
